A study of Mus musculus and Rattus norvegicus with 79 samples.

Results

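The genes described here encode 10 chaperones of the cytosol and nucleus, proteins that bind unfolded or immature client proteins and help them fold. They are the Hsp70 genes Hspa1a, Hspa1b and Hspa8, the Hsp90 genes Hsp90aa1 and Hsp90ab1, the Hsp110 gene Hsph1, the J-domain genes Dnajb1 and Dnaja1, the small heat shock gene Hspb1 and the co-chaperone gene Stip1. They were chosen by name, 10 of the 24790 genes that the mouse count tables hold. For each, the transcript row with the highest total count stood for the gene. All 10 passed the filter on low counts in both experiments. In build GRCm38.p6 Hspa1a (chr17:34969359-34972156) and Hspa1b (chr17:34956429-34959238) are neighbours, Hsp90ab1 (chr17:45567778-45573261) is on the same chromosome, and Hsph1 (chr5:149616843-149636498) and Hspb1 (chr5:135887919-135889563) share another. Hsp90aa1 is at chr12:110691036-110696395, Hspa8 at chr9:40801276-40805202, Dnaja1 at chr4:40722468-40734965, Dnajb1 at chr8:83608175-83612653 and Stip1 at chr19:7020696-7040026.

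Liver RNA was sequenced in mice that had 12 h of light and then 12 h of darkness each day and were trained to eat at night. Hours are counted from lights on (Zeitgeber time, ZT), so ZT12 is lights off. The first experiment holds 27 polyA libraries of C57BL/6 livers, with 3 per group. Fed mice were sampled at ZT13, ZT14, ZT18 or ZT22, and unfed mice at the same hours and at ZT10. The second comprises 36 total RNA libraries, with ribosomal RNA removed, of Nr3c1fl/fl livers, in which exons of the glucocorticoid receptor (GR) gene are flanked by sites for CRE recombinase. These mice received AAV-tbg-CRE or AAV-tbg-GFP, adeno-associated viruses whose tbg promoter is active in hepatocytes, 10 days before the liver was taken, with 3 livers per virus and time. In both virus groups the livers of ZT10 and ZT12 are from unfed mice, and the later ones, of ZT13, ZT14, ZT18 or ZT22, are from fed mice. All groups of the second experiment carry the floxed alleles and a virus, and CRE acts in hepatocytes, so other liver cells keep Nr3c1.

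Hsp70 proteins bind short hydrophobic stretches of a client, J-domain proteins bring clients to Hsp70, and Hsp110 exchanges the nucleotide of Hsp70 so that the client is let go. Stip1 (also called Hop) bridges Hsp70 and Hsp90 so that clients pass from one to the other, and GR is a classic client of this relay, which holds the receptor in a form able to bind hormone. Many of these genes are switched on by the heat shock factor HSF1, which binds inverted repeats of the unit GAA in their promoters. In liver their mRNA is known to follow the daily rise of body temperature. Hspa8 and Hsp90ab1 are the forms present without stress, while Hspa1a, Hspa1b and Hsp90aa1 are the inducible forms.

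The promoter stretches that hold such repeats are shown because 5 members share this feature of sequence. The members were chosen by name and not by sequence. Many heat shock genes are HSF1 targets, so the choice and the repeats are not independent. They come from the RefSeq promoter windows of build GRCm38.p6 (the coordinates of mm10), which run from 250 bases before to 50 after a gene's start. Capitals mark matches to GAANNTTC or TTCNNGAA, which are their own reverse complements, or to TTCNNGAANNTTC, which is GAANNTTCNNGAA on the other strand and holds both shorter motifs.
Hspa1a: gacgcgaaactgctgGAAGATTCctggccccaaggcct
Hspa1b: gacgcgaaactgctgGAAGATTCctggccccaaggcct
Hspb1: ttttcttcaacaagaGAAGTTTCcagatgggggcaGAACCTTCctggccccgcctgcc
Dnaja1: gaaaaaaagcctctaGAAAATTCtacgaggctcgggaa
Hsph1 before the start: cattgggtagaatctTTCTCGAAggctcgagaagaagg
Hsph1 after the start: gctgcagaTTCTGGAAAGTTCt
The Hspa1a stretch lies at chr17:34972238-34972275 on the minus strand and the Hspa1b stretch at chr17:34959320-34959357 on the minus strand, each with its match 104 bases before the start. The 300-base windows of this pair of genes were identical at 296 bases. The Hspb1 stretch lies at chr5:135887787-135887844 on the plus strand, and the Dnaja1 stretch, before the first of its starts, at chr4:40722329-40722366 on the plus strand. The Hsph1 stretches lie at chr5:149636347-149636384 and chr5:149636287-149636308 on the minus strand, and the second begins its match of 3 units 36 bases after the first start used for its windows. Both stretches lie inside the Hsph1 interval given above, so before and after refer here to the start of the window. At least 1 match of 2 units stood in 15.1% of all 32851 RefSeq windows, and a match of 3 units in 0.603%. These shares are per window, while Dnaja1, Hsph1 and Dnajb1 had more than 1 window each. The windows of Dnajb1 and Stip1 held none. Hspa8, Hsp90aa1 and Hsp90ab1 were the members without a matched window.

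In units of 1000000 counts, the libraries held 23.87 to 91.77 (median 43.6) in C57BL/6 livers and 34.64 to 78.76 (median 53.4) in Nr3c1fl/fl livers. Hspa1a had the fewest counts of the members, with a median of 28 counts a library in C57BL/6 livers and 9 counts in Nr3c1fl/fl livers, and every other member had a median of at least 186 counts. All 9 hepatocyte markers were detected in every library of both experiments. A C57BL/6 library that stood apart was replicate 1 of the fed group at ZT14, with the highest summed bile duct (109 CPM) and muscle (31.6 CPM) markers of all libraries, and another was replicate 3 of the unfed group at ZT18, with 202 CPM of pancreatic acinar markers against at most 27.3 CPM elsewhere. CPM are counts per 1000000 of the scaled library total. Nr3c1, the gene that CRE targets, was at 102 to 201 CPM (median 127 CPM) in the 18 CRE livers and at 147 to 323 CPM (median 213 CPM) in the 18 GFP livers, lower in CRE by 0.63 ± 0.06 on the log2 scale (± SE).

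Most of the family was higher in fed livers. Averaged over ZT13, ZT14, ZT18 and ZT22, 7 of the 10 chaperone mRNAs were more abundant in fed than in unfed C57BL/6 livers and none was less so (edgeR, Benjamini-Hochberg adjusted p under 0.05 over all 14744 genes tested). Of all genes tested, 35.4% passed this test in either direction and 17.5% were higher. The median log2 fold change was 0.49 over the 10 members and 0.01 over all genes. The 7 calls held in each of the 24 fits that left out 1 library. In bulk liver, fewer cells of a type and less RNA per cell cannot be told apart.

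**Figure D1:**
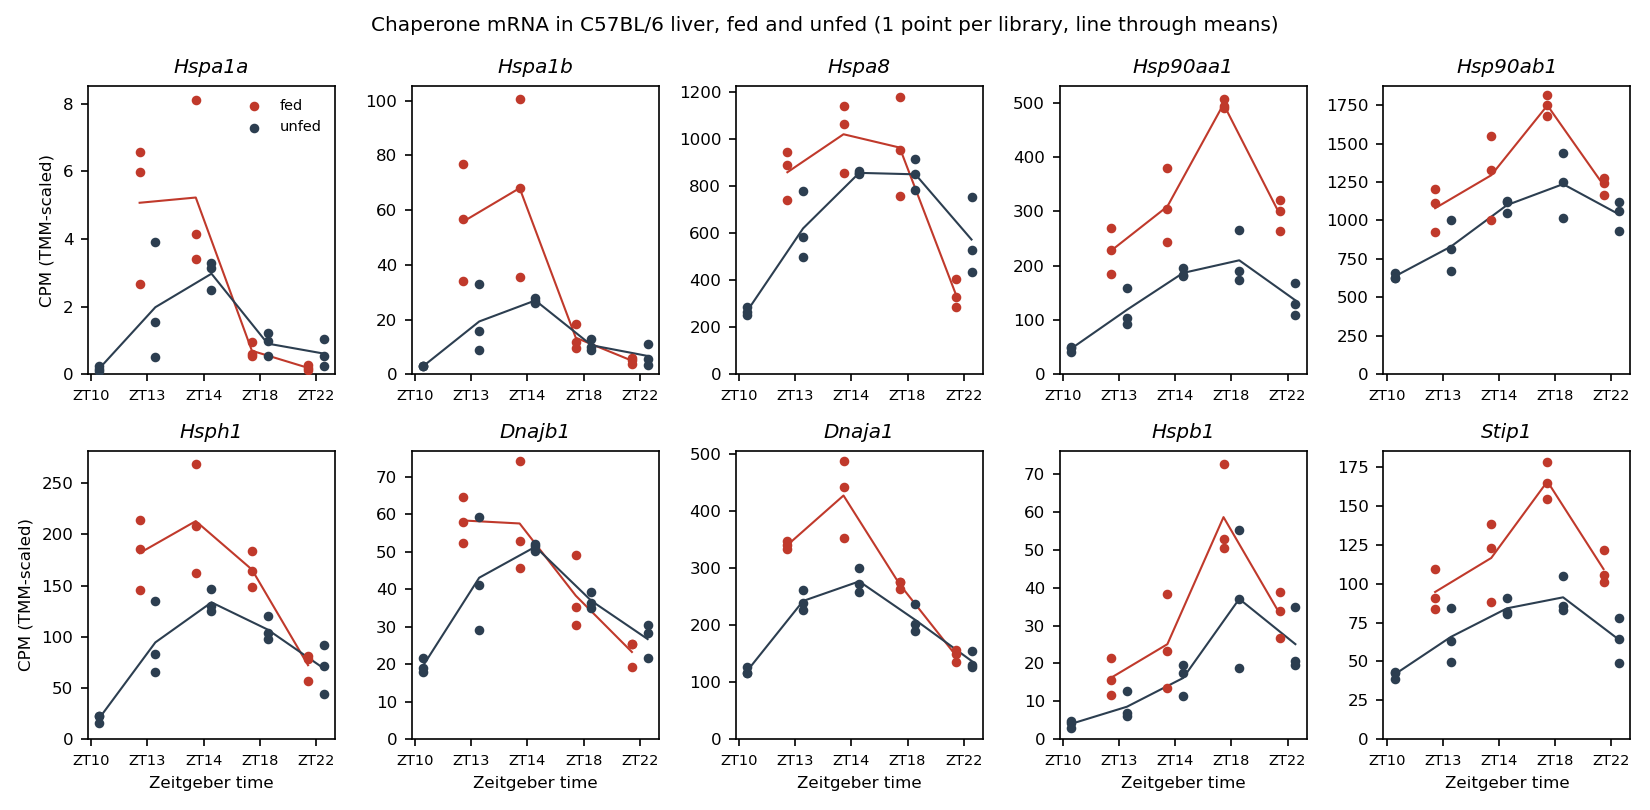
Level of each chaperone mRNA (CPM, linear axis from 0) against Zeitgeber time at evenly spaced positions in C57BL/6 liver, fed left of unfed at each hour; each point is 1 library and lines join the means of 3. Hsp90aa1 stands at 492 to 508 CPM in fed livers at ZT18, above the 173 to 266 CPM of unfed livers, while Hspa1b is highest at ZT13 and ZT14.

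Hsp90aa1 passed the threshold, higher in fed livers, at every hour, and Stip1, the bridge between Hsp70 and Hsp90, did so at ZT18 and ZT22. Hsp90aa1, the inducible cytosolic Hsp90, was at 185, 270.3 and 229 CPM at ZT13, at 244, 305 and 379 CPM at ZT14, at 492, 494 and 508 CPM at ZT18 and at 265, 300.04 and 321 CPM at ZT22 in fed livers. In unfed livers Hsp90aa1 was at 159, 104 and 93.5 CPM at ZT13, at 181, 182 and 196 CPM at ZT14, at 190.3, 266 and 173 CPM at ZT18 and at 169, 110.0 and 130.2 CPM at ZT22. At each of the 4 hours every fed liver was above every unfed liver. The average log2 fold change of Hsp90aa1 was 1.01 ± 0.09 (adjusted p = 8.81e-09), with 0.94 and 0.73 early in the night (ZT13, ZT14) and 1.25 and 1.11 late (ZT18, ZT22), each past the threshold. The test of feeding by time asks whether the difference between fed and unfed livers changes with the hour. It did not pass for Hsp90aa1 (edgeR, adjusted p = 0.489).

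Stip1 was at 155, 165 and 179 CPM in fed livers at ZT18, against 85.9, 105 and 83.2 CPM in unfed livers. At ZT22 it was at 101, 122 and 106 CPM in fed livers, against 78.3, 48.8 and 64.7 CPM in unfed livers. Both hours separated the groups fully, and the log2 fold changes of 0.86 ± 0.17 and 0.78 ± 0.17 passed the threshold (adjusted p = 0.000493 and 0.00174). At ZT13 and ZT14 the groups overlapped, with log2 fold changes of 0.53 and 0.47 that did not pass. The average rise of Stip1 was 0.66 ± 0.09 (adjusted p = 1.22e-06).

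Hsp90ab1, the constitutive Hsp90, passed at ZT18 alone. It was at 1814, 1750.3 and 1679 CPM in fed livers at ZT18, against 1016, 1441 and 1251 CPM in unfed livers, without overlap and with a log2 fold change of 0.50 ± 0.14 (adjusted p = 0.011). Leaving out replicate 1 of the unfed group at ZT18 took this to 0.38 (adjusted p = 0.0804). The average rise of Hsp90ab1 was 0.34 ± 0.07 (adjusted p = 0.000539). Feeding by time did not pass (edgeR, adjusted p = 0.702), so a limit of the rise to ZT18 is not shown.

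Hspa1b, an inducible Hsp70, differed between fed and unfed livers early in the night. It was at 34, 76.9 and 56.7 CPM in fed livers at ZT13, against 33.1, 16 and 8.78 CPM in unfed livers, and at 35.5, 68.1 and 101 CPM in fed livers at ZT14, against 27, 26 and 28 CPM in unfed livers. Every fed liver was above every unfed liver at both hours, at ZT13 by a margin of less than 1 CPM between the lowest fed and the highest unfed liver. The log2 fold change of Hspa1b was 1.54 ± 0.39 at ZT13 (adjusted p = 0.0501) and 1.35 ± 0.39 at ZT14 (adjusted p = 0.0392). At ZT18 and ZT22 Hspa1b was at 9.66 to 18.5 and 3.88 to 5.76 CPM in fed livers, against 9.01 to 12.9 and 3.38 to 11.2 CPM in unfed livers, and these overlapped. The average rise of 0.69 ± 0.20 passed (adjusted p = 0.0093). With all libraries, feeding by time did not pass for Hspa1b (edgeR, adjusted p = 0.0733).

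Hspa1a, which encodes nearly the same protein, was read at a far lower level. It was at 2.66, 6.58 and 5.98 CPM in fed livers at ZT13, against 3.9, 1.54 and 0.511 CPM in unfed livers. At ZT14 it was at 3.42, 4.15 and 8.13 CPM in fed livers, against 3.29, 2.5 and 3.14 CPM in unfed livers. The groups overlapped at ZT13 and not at ZT14. The log2 fold change of Hspa1a was 1.36 and 0.84 at these hours and -0.36 and -1.65 at ZT18 and ZT22, and none passed the threshold. The average was 0.05 ± 0.33 (adjusted p = 0.927). Hspa1b took 84.1% to 97.7% of the counts of this pair in C57BL/6 livers and 82.8% to 100% in Nr3c1fl/fl livers. Reads from such near-identical copies can be split between the genes by the counting, so the level of each alone is uncertain.

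Hspa8, the constitutive Hsc70, was the member whose difference between fed and unfed livers changed with the hour. It was at 743, 945 and 888 CPM in fed livers at ZT13, against 778, 585 and 497 CPM in unfed livers, and the log2 fold change of 0.47 ± 0.18 did not pass (adjusted p = 0.234). At ZT22 it was at 284, 330.2 and 407 CPM in fed livers, against 436, 530.3 and 752 CPM in unfed livers, all fed livers below all unfed livers. Hspa8 fell by 0.75 on the log2 scale there (± 0.18, adjusted p = 0.00381). It was the single member to pass the test of feeding by time (adjusted p = 0.0103), which 8.1% of all genes passed. Replicate 3 of the unfed group at ZT22 bears on both: without it the fall at ZT22 was 0.50 (log2 fold change -0.50, adjusted p = 0.0618) and the test of feeding by time gave an adjusted p of 0.0508. The count of members in that test was 3 without replicate 1 of the fed group at ZT13, replicate 1 of the fed group at ZT14, replicate 1 of the unfed group at ZT13 or replicate 1 of the unfed group at ZT22, and 2 without replicate 3 of the fed group at ZT18. In those 5 fits Hspa1b passed too (adjusted p between 0.0135 and 0.0461). Over all genes 1067 to 1612 passed in them, against 1194 with all libraries.

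Among the partners of Hsp70, Dnaja1 and Hsph1 rose and Dnajb1 did not pass. Dnaja1, a J-domain protein of the cytosol, was at 333, 347 and 341 CPM in fed livers at ZT13, against 261, 227 and 239 CPM in unfed livers. At ZT14 it was at 353, 442 and 487 CPM in fed livers, against 271, 259 and 299.9 CPM in unfed livers. Dnaja1 separated the groups at ZT13, ZT14 and ZT18 and passed the threshold at each, with log2 fold changes of 0.49, 0.63 and 0.38. At ZT22 the change was 0.10 (adjusted p = 0.571), and the average rise was 0.40 ± 0.05 (adjusted p = 2.09e-06).

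Hsph1 was at 146, 214 and 186 CPM in fed livers at ZT13, against 135, 82.7 and 65.5 CPM in unfed livers. Every fed liver was higher, and the log2 fold change of 0.94 ± 0.24 had an adjusted p of 0.0465. At ZT18 it was at 164, 149 and 184 CPM in fed livers, against 103, 120.1 and 97.5 CPM in unfed livers, again without overlap (log2 fold change 0.63, adjusted p = 0.0487). Leaving out any 1 of the 6 libraries of ZT18 ended that call, with adjusted p between 0.0565 and 0.146. The average rise of Hsph1 was 0.58 ± 0.12 (adjusted p = 0.000389).

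Dnajb1, the J-domain protein that works with the inducible Hsp70, was at 45.6, 53 and 74.2 CPM in fed livers at ZT14, against 50.4, 51.6 and 52.2 CPM in unfed livers, and the groups overlapped at all 4 hours. Its average change was 0.12 ± 0.10 (adjusted p = 0.403).

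Hspb1, a small heat shock protein that holds unfolded clients without ATP, peaked late. It was at 72.7, 52.9 and 50.4 CPM in fed livers at ZT18, against 18.7, 55.3 and 37.1 CPM in unfed livers. Replicate 2 of the unfed group lay within the fed range, and no single hour passed the threshold. Over the 4 hours together the rise of 0.66 ± 0.18 passed (adjusted p = 0.00416).

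Hour by hour, 3 members were higher in fed livers at ZT13 (Hsp90aa1, Hsph1 and Dnaja1, where 1.1% of all genes passed and 0.468% were higher). At ZT14, 3 were higher (Hspa1b, Hsp90aa1 and Dnaja1, against 5.64% of all genes passed and 2.26% higher). At ZT18, 5 were higher (Hsp90aa1, Hsp90ab1, Hsph1, Dnaja1 and Stip1, against 26.4% passed and 13.3% higher). At ZT22, 2 were higher (Hsp90aa1 and Stip1) and Hspa8 was lower (against 20.2% passed, 10.5% higher and 9.77% lower). Libraries did not overlap between the groups for 4 members at ZT13 (17.4% of all genes), 5 at ZT14 (27.7%), 5 at ZT18 (39.9%) and 4 at ZT22 (32.9%). At an unadjusted p under 0.05 in edgeR there were 10, 5, 5 and 4 members at these hours. Of all genes there were 1903, 2896, 5500 and 4746. At ZT13 the 10 members were all higher in fed livers. The adjusted threshold shifts with the number of genes that pass, so the counts past it do not rank the hours.

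The counts at single hours changed when 1 liver was left out, and so did those over all genes. At ZT13 the counts were 3 members and 162 of all genes. They were 7 and 434 without replicate 1 of the unfed group. Without replicate 2 or 3 of the unfed group they were 0 and 76 or 0 and 72. Without replicate 2 or 3 of the fed group they were 0 and 40 or 1 and 85. In the fits with 0 members the log2 fold changes were 0.81 to 0.86 for Hsp90aa1, 0.75 to 0.87 for Hsph1 and 0.45 to 0.49 for Dnaja1. With all libraries they were 0.94, 0.94 and 0.49. At ZT14 the counts were 3 members and 831 of all genes. Without replicate 1, 2 or 3 of the unfed group they were 1 member each and 389, 389 or 458 genes. Without replicate 3 of the fed group they were 1 and 501. At ZT18 the counts were 5 members and 3897 of all genes. Without replicate 1 or 3 of the unfed group they were 3 and 3214 or 3 and 2805. Hspa1b at ZT14 also missed the threshold without replicate 2 of the fed group (adjusted p = 0.0699), and Dnaja1 at ZT18 without replicate 3 of the unfed group (adjusted p = 0.0656). Hsp90aa1 at ZT18 and ZT22, Stip1 at ZT18 and ZT22 and Dnaja1 at ZT14 passed in every fit that left out 1 library of the hour.

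**Figure D2:**
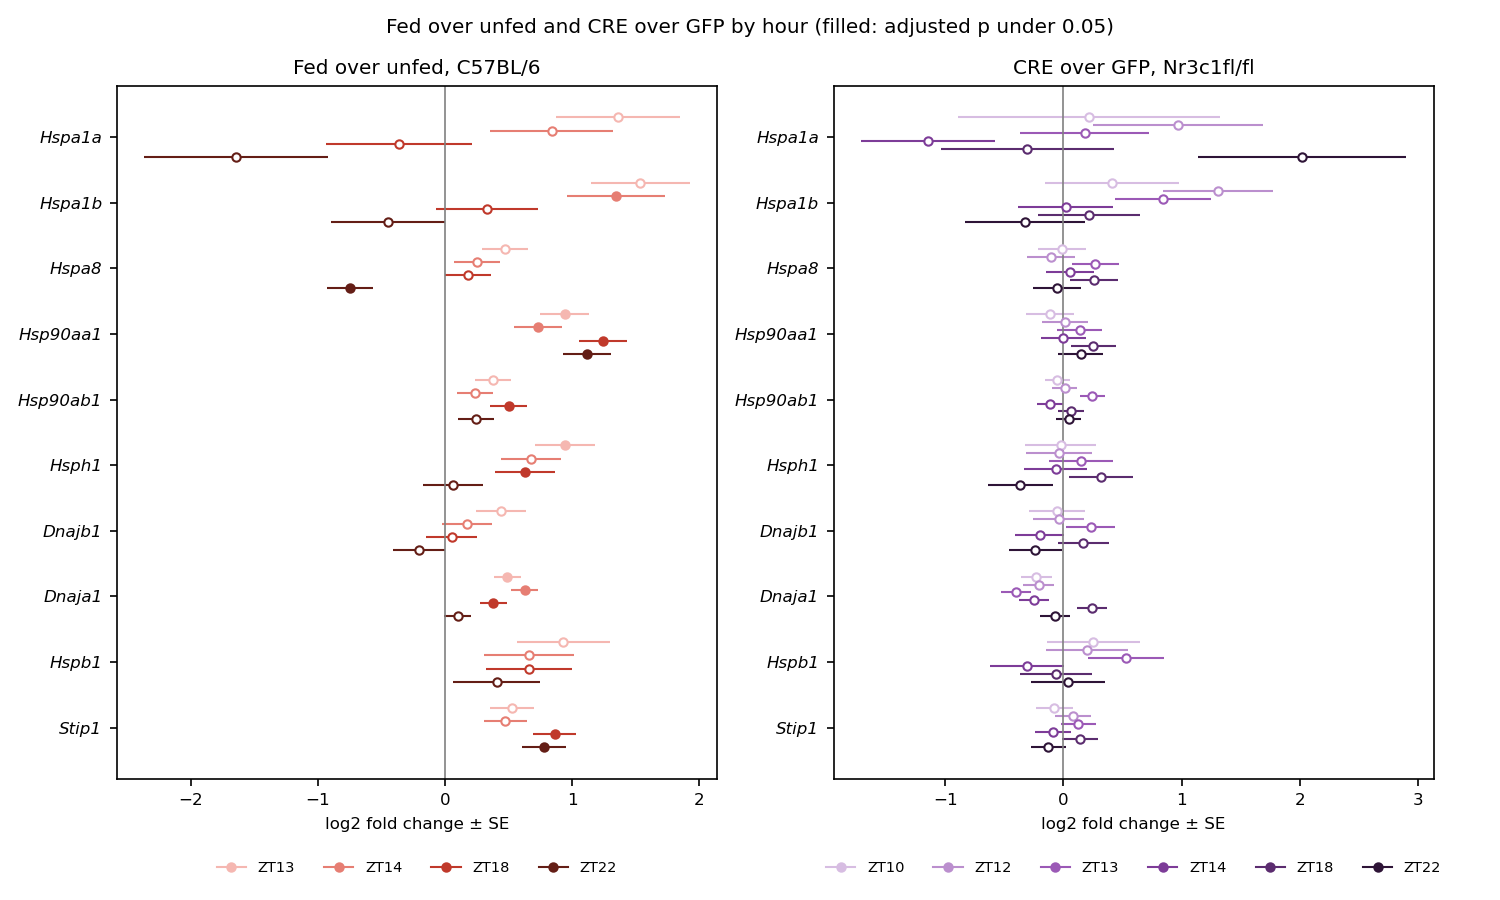
Log2 fold change of each chaperone mRNA at each hour (point) with its standard error (bar), fed over unfed in C57BL/6 liver on the left and CRE over GFP in Nr3c1fl/fl liver on the right; filled points had an adjusted p under 0.05. Hsp90aa1 is filled at all 4 hours on the left (0.73 to 1.25), and no point on the right is filled.

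Markers of another cell type moved with feeding. All 8 endothelial markers were lower in fed livers on average, and their summed level was 243 to 354 CPM (median 299 CPM) in the 12 fed livers, against 300.02 to 409 CPM (median 362 CPM) in the 12 unfed livers of the same hours, with no marker at 0 in any library. Hepatocyte markers summed to a median of 108018 CPM in fed livers and 112456 CPM in unfed livers, with 1 of 9 higher and 3 lower. The part of these shifts in the chaperone differences was not tested. The fit without the 2 libraries that stood apart kept all 7 average calls.

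The family was at its lowest before dusk and higher after it, with or without food. Fed livers at ZT13 had more mRNA than unfed livers at ZT10 for all 10 members (26.7% of all genes passed, 13.4% higher and 13.3% lower), and unfed livers at ZT13 for 8 of the 10 (18.9% passed, 9.74% higher and 9.12% lower). Both comparisons share the 3 unfed livers of ZT10. From ZT10 to ZT13 the unfed mice also went longer without food, so hour and fasting cannot be told apart in that step. In each, no library of ZT13 overlapped with one of ZT10 for any of the 10 members, against 44.8% of all genes for fed and 34% for unfed livers.

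**Figure D3:**
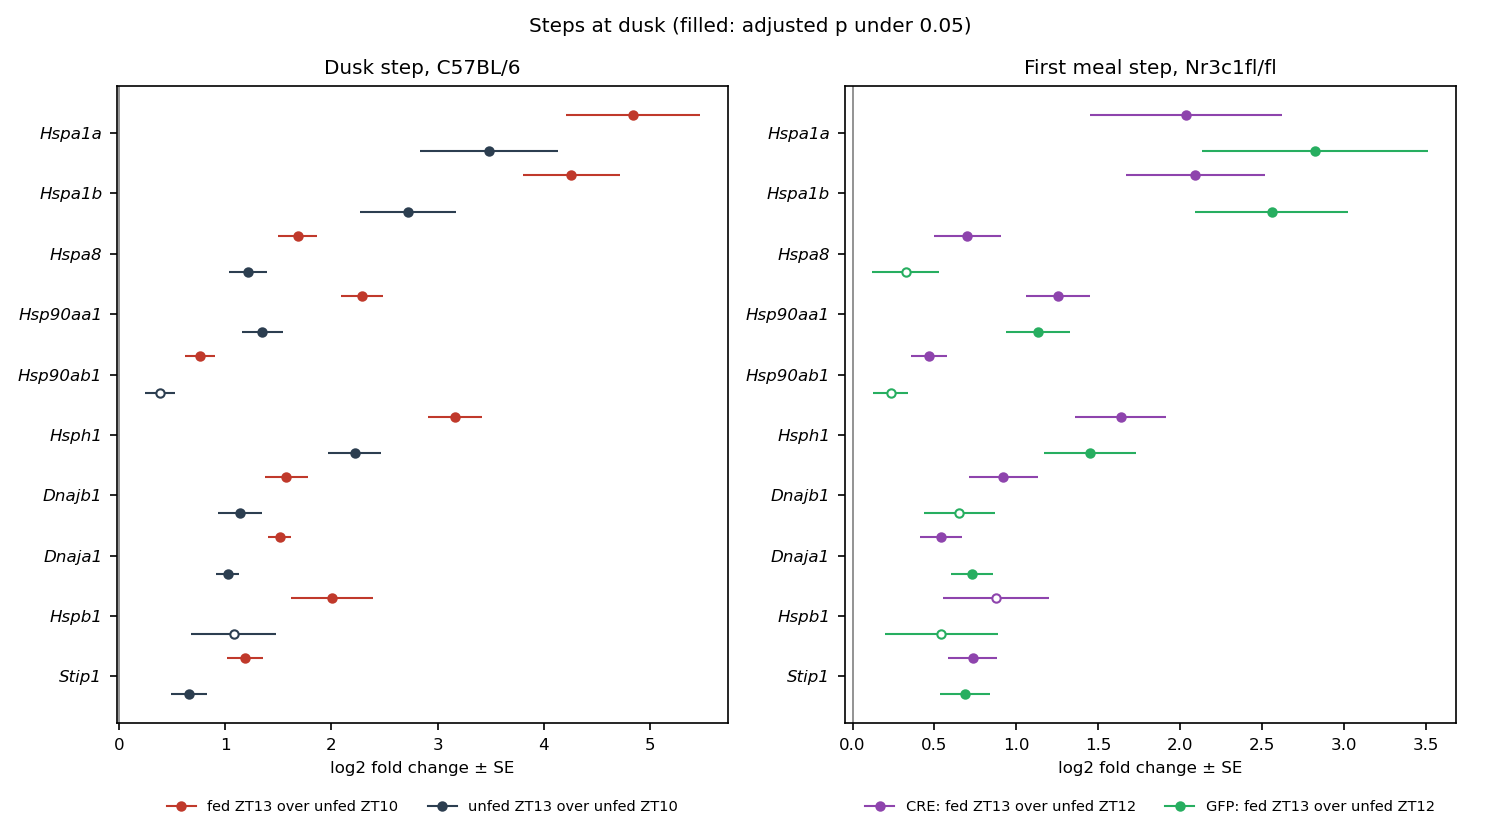
Log2 fold change (point) and standard error (bar) across dusk. On the left, fed ZT13 and unfed ZT13 each over the same unfed ZT10 livers in C57BL/6; on the right, fed ZT13 over unfed ZT12 in CRE and in GFP livers. Filled points had an adjusted p under 0.05; all 10 members are filled for fed ZT13 and 8 for unfed ZT13.

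Hspa1b stood at 2.92, 2.92 and 2.91 CPM in the unfed livers of ZT10, the lowest SD relative to the mean of any group and member. Its mean was 55.9 ± 21.5 CPM in fed livers at ZT13 and 19.3 ± 12.5 CPM in unfed livers at ZT13, against 2.92 ± 0.0051 CPM in unfed livers at ZT10 (± SD, n = 3). The log2 fold changes over ZT10 were 4.26 ± 0.46 for fed and 2.72 ± 0.45 for unfed livers (± SE, adjusted p = 2.27e-07 and 0.000111). Hsph1 changed by 3.16 ± 0.26 in fed and 2.22 ± 0.25 in unfed livers, Hsp90aa1 by 2.29 ± 0.20 in fed and 1.35 ± 0.19 in unfed livers, and Hspa8 by 1.68 ± 0.18 in fed and 1.21 ± 0.18 in unfed livers. Hspa1a changed by 4.84 in fed and 3.48 in unfed livers, over only 2, 8 and 5 counts in the livers of ZT10. In unfed livers Hsp90ab1 (0.38, adjusted p = 0.0615) and Hspb1 (1.08, adjusted p = 0.0593) did not pass. Leaving out replicate 1 of the unfed group at ZT13 also ended the call of Stip1 there (0.44, adjusted p = 0.0936).

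Over ZT13 to ZT22, fed livers varied with the hour for all 10 members (37.2% of all genes passed), and over ZT10 to ZT22 unfed livers did so for all 10 (42.5% passed). In unfed livers the hour and the time since the last meal change together and cannot be told apart. By the hour of the highest mean the profiles fell into 2 sets. Hspa1a, Hspa1b, Hspa8, Hsph1, Dnajb1 and Dnaja1 had their highest mean at ZT13 or ZT14, in fed and in unfed livers. Hsp90aa1, Hsp90ab1, Stip1 and Hspb1 had their highest mean at ZT18, in fed and in unfed livers. In unfed livers the ranges of ZT14 and ZT18 overlapped for Hspa8 (means 856 and 850 CPM), Hsp90aa1, Hsp90ab1, Stip1 and Hspb1. This grouping was made from the values and carries no test.

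**Figure D4:**
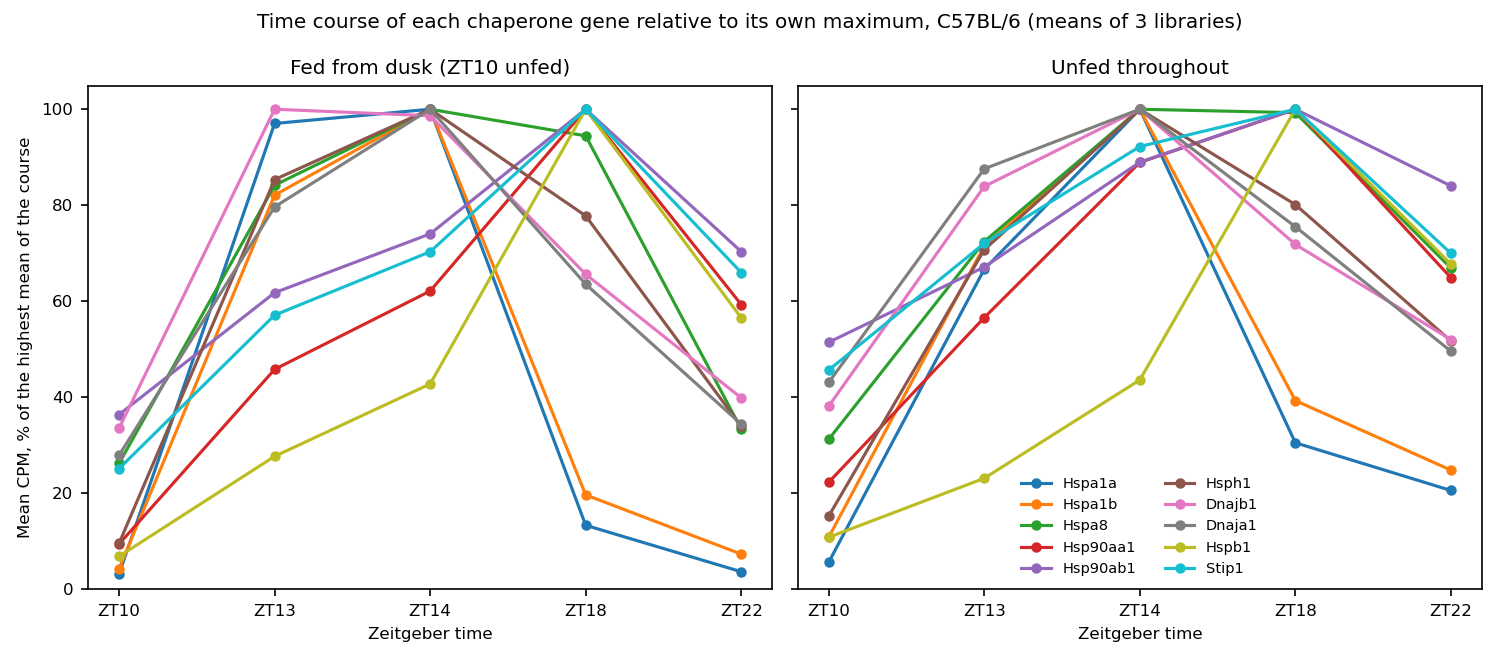
Mean CPM of each chaperone mRNA as a percentage of the highest mean in its own course, C57BL/6, at evenly spaced hours; both panels start from the same unfed ZT10 livers and continue with fed livers on the left and unfed livers on the right. Hsp90aa1, Hsp90ab1, Stip1 and Hspb1 reach 100% at ZT18 and the others at ZT13 or ZT14.

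Within the early group the levels late in the night differed. Means of Hspa1b in fed livers were 55.9 CPM at ZT13, 68.1 CPM at ZT14, 13.4 CPM at ZT18 and 4.96 CPM at ZT22. Those of Hspa8 were 859 CPM at ZT13, 1020.3 CPM at ZT14, 964 CPM at ZT18 and 340.3 CPM at ZT22. The ranges of ZT14 and ZT18 overlapped for Hspa8 and not for Hspa1b. Over all 9 group means the highest to lowest ratio was 31.4 for Hspa1a, which had 2, 8 and 5 counts in its lowest group, 23.3 for Hspa1b, 14.7 for Hspb1, 10.6 for Hsp90aa1 and 10.5 for Hsph1. It was 3.98 for Stip1, 3.82 for Hspa8, 3.59 for Dnaja1, 2.98 for Dnajb1 and 2.75 for Hsp90ab1. The lowest group was unfed ZT10 for every member, and for Hspa1a, Hspa8 and Dnajb1 its range overlapped with that of fed ZT22.

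Ordered by mean, the groups of Hspa1b ran fed ZT14, fed ZT13, unfed ZT14, unfed ZT13, fed ZT18, unfed ZT18, unfed ZT22, fed ZT22 and unfed ZT10. Neighbours in this order overlapped except fed ZT13 with unfed ZT14 and fed ZT22 with unfed ZT10. For Hsp90aa1 the order was fed ZT18, fed ZT14, fed ZT22, fed ZT13, unfed ZT18, unfed ZT14, unfed ZT22, unfed ZT13 and unfed ZT10. There the neighbours without overlap were fed ZT18 with fed ZT14, unfed ZT14 with unfed ZT22, and unfed ZT13 with unfed ZT10. Over the 10 members in C57BL/6 livers, 3 to 8 of the 8 neighbouring pairs overlapped.

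Livers of the same group also differed together. In fed livers at ZT13 replicate 2 was the highest for all 10 members and replicate 1 the lowest for all 10. In fed livers at ZT14 replicate 3 was the highest and replicate 1 the lowest for all 10, and in unfed livers at ZT13 replicate 1 was the highest for all 10 and replicate 3 the lowest for 9. The median ratio of the highest to the lowest liver was 1.86 in unfed livers at ZT13, 1.59 in fed livers at ZT14 and 1.10 in unfed livers at ZT14. Members of a library share its depth and scaling.

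Across the 9 group means of C57BL/6 livers the Pearson correlation of log2 levels had a median of 0.80 over the 45 pairs of members, and across the 12 group means of Nr3c1fl/fl livers it was 0.78. The highest was Hsp90aa1 with Stip1 in C57BL/6 livers (0.988) and Hsp90ab1 with Stip1 in Nr3c1fl/fl livers (0.976). The lowest was Hspa1a with Hspb1 in C57BL/6 livers (0.0671) and Dnaja1 with Hspb1 in Nr3c1fl/fl livers (0.142). Groups share hours and feeding states, so these values describe the profiles and are not tests. Of 9572 other genes with at least 5 CPM on average in both experiments, Chordc1, an Hsp90 co-chaperone, had the profile most like the members' mean, with correlations of 0.986 over 9 groups and 0.944 over 12 groups. Dus1l, Sec14l1, Adap2, Itpa, Ywhag, Atp2a2 and Apba3 followed, with the smaller of the 2 correlations between 0.894 and 0.924.

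In Nr3c1fl/fl livers 1 member passed the test between viruses. Over the 6 hours together, 0 members were higher in CRE livers than with GFP and 1 was lower, among 15712 genes of which 14.6% passed, 7.92% higher and 6.64% lower. The member was Dnaja1, at -0.15 ± 0.05 (log2 fold change ± SE, adjusted p = 0.0449). The call depended on single libraries: it was kept in 12 of the 36 fits that left out 1 library and lost in 24, with adjusted p between 0.0117 and 0.0909. It was kept only in the fits that left out GFP replicate 3 or CRE replicate 1 at ZT10, GFP replicate 2 or 3 or CRE replicate 3 at ZT12, GFP replicate 1 or CRE replicate 3 at ZT13, GFP replicate 2 or CRE replicate 1 at ZT14, CRE replicate 1 at ZT18, and GFP replicate 1 or CRE replicate 2 at ZT22.

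**Figure D5:**
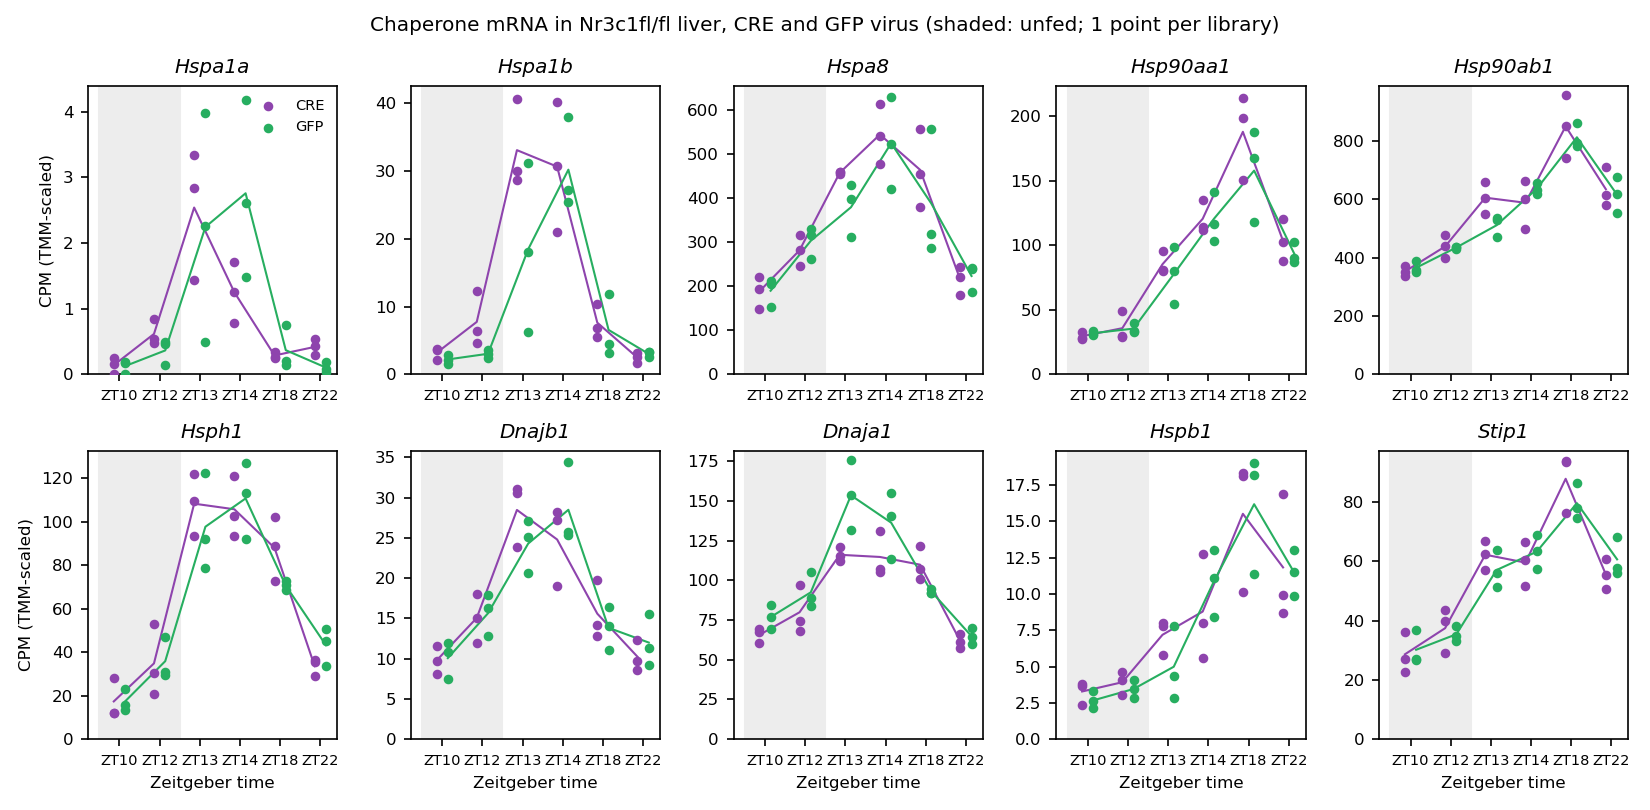
Level of each chaperone mRNA (CPM, linear axis from 0) against Zeitgeber time at evenly spaced positions in Nr3c1fl/fl liver, CRE left of GFP at each hour; each point is 1 library, lines join the means of 3, and the unfed hours are shaded. Dnaja1 at ZT13 lies at 112 to 121 CPM in CRE livers, below the 131 to 176 CPM of GFP livers, and the groups overlap for most other members and hours.

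Dnaja1 was at 115, 112 and 121 CPM in CRE livers at ZT13, against 131, 176 and 154 CPM in GFP livers. All CRE livers were lower at that hour, and the log2 fold change of -0.40 ± 0.13 did not pass in edgeR (adjusted p = 0.0616). DESeq2 called 1 member at ZT13, lower in CRE livers, and 1061 of all genes in either direction. At ZT18 the order was the other way, with Dnaja1 at 122, 101 and 107 CPM in CRE livers, against 94.7, 91.9 and 92 CPM in GFP livers (log2 fold change 0.24, adjusted p = 0.642).

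The Hsp90 genes and Stip1 did not pass. Hsp90aa1 was at 214, 151 and 199 CPM in CRE livers at ZT18, against 168, 118 and 188 CPM in GFP livers, and these overlapped. Its average log2 fold change was 0.07, with a 95% interval of -0.09 to 0.23, and that of Hsp90ab1 was 0.03, with an interval of -0.06 to 0.12. Stip1 was at 0.01 (interval -0.12 to 0.14) and Hspa8 at 0.07 (interval -0.10 to 0.24). Missing the threshold does not show that levels were alike, and these intervals bound how far apart the averages may lie.

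The intervals were wider for the low and variable members. Hspa1b averaged 0.41 on the log2 scale (interval 0.02 to 0.80, adjusted p = 0.164), and passed without GFP replicate 3 at ZT13 (adjusted p = 0.0485) or GFP replicate 2 at ZT18 (adjusted p = 0.0402). At ZT12, before food, it was at 6.33, 4.64 and 12.2 CPM in CRE livers, against 3.05, 2.43 and 3.6 CPM in GFP livers, without overlap (log2 fold change 1.31 ± 0.47, adjusted p = 0.138). At ZT13 it was at 30.0, 28.7 and 40.6 CPM in CRE livers, against 6.19, 18 and 31.2 CPM in GFP livers, where the highest GFP liver lay within the CRE range. Hspb1 averaged 0.11 (interval -0.17 to 0.38), Hsph1 -0.0046 (interval -0.24 to 0.23) and Dnajb1 -0.02 (interval -0.20 to 0.16). Hspa1a averaged 0.32 (interval -0.33 to 0.97), and at ZT10 it had 0, 7 and 4 counts in CRE livers and 3, 2 and 0 counts in GFP livers, where a count of 0 allows up to 3 counts. At ZT22 Hspa1a had 8, 8 and 10 counts in CRE livers and 1, 2 and 4 counts in GFP livers, and the change of 2.02 ± 0.88 did not pass (adjusted p = 0.383).

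At single hours edgeR called 0 members at each of ZT10, ZT12, ZT13, ZT14, ZT18 and ZT22, where 0.694%, 3.75%, 5.04%, 1.57%, 0.102% and 0.146% of all genes passed. Of all genes 0.223%, 1.5%, 1.89%, 0.586%, 0.0382% and 0.0891% were higher and 0.471%, 2.25%, 3.15%, 0.987%, 0.0636% and 0.0573% were lower in CRE livers at those hours. At an unadjusted p under 0.05 there were 0, 1, 3, 0, 0 and 1 members at those hours. Over all 15712 genes there were 1751, 2203, 2818, 2026, 1281 and 1706. DESeq2 called 0, 0, 1, 0, 0 and 0 members, against 197, 762, 1061, 417, 80 and 92 of all genes. Libraries did not overlap for 1, 1, 3, 0, 2 and 1 members, against 15.8%, 22.9%, 20.6%, 18.5%, 16.2% and 12.4% of all genes. The 3 at ZT13 were Hspa8 and Hsp90ab1, higher in CRE livers, and Dnaja1, lower. Without GFP replicate 1 the count at ZT13 was 1 lower in CRE livers, and without GFP replicate 3 it was 1 higher. Of all genes 375 and 1343 passed in these fits, against 792 with all libraries. The test of virus by time called 0 members (0.687% of all genes). At an unadjusted p under 0.05 it had 1 member (1702 of all genes), and in DESeq2 0 (402 genes). The chaperone mRNAs varied with the hour in CRE livers for all 10 members (41.5% of all genes passed) and in GFP livers for all 10 (46.9% passed).

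Hepatocyte markers shifted between the viruses. Of 9 markers 5 were lower in CRE livers on average and none was higher, and their sum was 49296 to 71575 CPM (median 60051 CPM) in CRE livers, against 56721 to 84340.3 CPM (median 68296 CPM) in GFP livers, with none at 0. The markers were Alb, Ttr, Apoa1, Apob, Cps1, Tat, Hnf4a, Cyp3a11 and Fgb. CRE acts in hepatocytes, so less mRNA of these genes per cell and fewer such cells cannot be told apart. The part of this shift in the chaperone values was not tested. One row that the gene table does not name took 2.23% to 28.5% of the counts, with over 20% in 6 libraries. These were CRE replicate 1 and all 3 GFP libraries at ZT10, and GFP replicates 1 and 2 at ZT12. Without them the average has no ZT10 and rests on 1 GFP library at ZT12, and Dnaja1 was at -0.12 (adjusted p = 0.27).

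With either virus the members fell into an early and a late set. Hsp90aa1, Hsp90ab1, Stip1 and Hspb1 had their highest mean at ZT18 in CRE and in GFP livers, as in the C57BL/6 courses, and the other 6 at ZT13 or ZT14. These sets rest on the means and carry no test. The ranges of ZT14 and ZT18 overlapped for Hspa8 and Hspb1 with either virus. They also overlapped for Hsph1, Dnajb1 and Dnaja1 in CRE livers and for Hsp90aa1 in GFP livers. Hsp90aa1 averaged 29.5, 35.7, 85.3, 120.5, 188 and 103 CPM in CRE livers over ZT10, ZT12, ZT13, ZT14, ZT18 and ZT22, against 31.9, 35.4, 77.6, 120.5, 158 and 93.3 CPM in GFP livers. Hspa1b averaged 3.16, 7.74, 33.1, 30.7, 7.62 and 2.44 CPM in CRE livers over the same hours, against 2.19, 3.02, 18.5, 30.2, 6.55 and 3.00 CPM in GFP livers.

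The step from unfed ZT12 to fed ZT13, across lights off and the first food, raised 9 members in CRE livers (9.38% of all genes passed, 5.77% higher and 3.61% lower) and 6 in GFP livers (2.95% passed, 1.91% higher and 1.04% lower). In CRE livers the members were all but Hspb1, and in GFP livers they were Hspa1a, Hspa1b, Hsp90aa1, Hsph1, Dnaja1 and Stip1. Libraries of the 2 hours did not overlap for 10 members in CRE livers (31.3% of all genes) and 8 in GFP livers (20.8%). Hsp90aa1 was at 79.9, 80.6 and 95.4 CPM in CRE livers at ZT13, against 29.9, 28.6 and 48.7 CPM in CRE livers at ZT12, a log2 fold change of 1.26 ± 0.20. In GFP livers it was at 54.2, 79.7 and 98.8 CPM at ZT13, against 39.5, 32.8 and 33.9 CPM at ZT12, a log2 fold change of 1.13 ± 0.20. Hspa1b changed by 2.09 ± 0.42 in CRE and 2.56 ± 0.47 in GFP livers, Hsph1 by 1.64 ± 0.28 in CRE and 1.45 ± 0.28 in GFP livers, and Dnaja1 by 0.54 ± 0.13 in CRE and 0.73 ± 0.13 in GFP livers. Hour and food change together in this step and cannot be told apart within it.

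The difference between these steps was tested itself. It passed for 0 members and for 0 of 15712 genes (0%) in edgeR. At an unadjusted p under 0.05 there were 0 members (634 of all genes), and in DESeq2 0 (10 genes). Differences of the log2 steps, CRE minus GFP, ran from -0.79 for Hspa1a to 0.38 for Hspa8, and the 95% interval was -0.44 to 0.68 for Hsp90aa1 and -1.72 to 0.79 for Hspa1b. The higher count in CRE livers is therefore not shown to be a larger response. The count of 9 was 4 without CRE replicate 2 at ZT12 (Hspa1b, Hsp90aa1, Hsph1 and Stip1). In that fit 512 of all genes passed, against 1474 with all libraries. Of the 6 fits that each leave out 1 library of the CRE step, Hspa8 missed the threshold in 5 (adjusted p between 0.0565 and 0.141) and Hspa1a in 4 (0.0621 to 0.13). In GFP livers Hspa1a missed the threshold without replicate 1 (adjusted p = 0.0615) or 3 (0.151) of ZT12 or replicate 3 of ZT13 (0.121), and Stip1 without replicate 3 of ZT12 (0.0529) or of ZT13 (0.0571). In an edgeR fit of the GFP groups alone 0 members and 0 of all genes passed. The row that the gene table does not name took 4.55%, 2.46% and 2.3% of the counts in GFP libraries at ZT13. At ZT12 it took 22.9%, 24.5% and 4.52%. With the share of this row as a covariate, Hspa1a was the only member to lose its call in the GFP step (log2 fold change 3.25, edgeR adjusted p = 0.0745). Without the libraries over 20% the ZT12 group of GFP holds replicate 3 alone and takes its spread from the groups that keep more libraries, and Hsph1 was the 1 member to pass.

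Other chaperones were read from lists chosen by function. Averaged over the night in fed against unfed livers, 11 of 18 Hsp90 co-chaperones were higher and 1 lower, with Fkbp4, a partner of Hsp90 in steroid receptor complexes, at 0.63 ± 0.07 and Cacybp at 0.43 ± 0.06. The lower one was Fkbp5, an Hsp90 co-chaperone that is itself a classic GR target, at -0.90 ± 0.13 (adjusted p = 4.27e-06). Of 21 partners of Hsp70, 8 were higher and 5 lower, with Bag2, a nucleotide exchange factor of Hsp70, at 0.96 and Hspa4l, a relative of Hsph1, at 0.70, against Bag4 at -0.45. The cytosolic chaperonin CCT, which folds actin and tubulin, had 6 of 8 subunits higher (Cct3 at 0.38 and Cct7 at 0.32), and prefoldin, which hands clients to it, 2 of 6 (Pfdn1 at 0.46). Of all genes 17.5% were higher and 17.9% lower. The medians of these lists were 0.16 for the Hsp90 co-chaperones, 0.06 for the Hsp70 partners, 0.16 for CCT and 0.13 for prefoldin, against 0.49 for the members.

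The chaperones of the endoplasmic reticulum, which fold secreted proteins, had 13 of 14 higher and none lower, with a median log2 fold change of 0.76 and Sdf2l1 at 1.71 ± 0.15 and Manf at 1.23 ± 0.11. Of 10 mitochondrial chaperones 2 were higher (Hspe1, the mitochondrial Hsp10, at 0.48) and 3 lower (Grpel2 at -0.58 and Clpx at -0.51 among them), near the 17.5% and 17.9% of all genes. Of 8 small heat shock genes listed 4 were tested and none passed. Of the heat shock factors and their binding protein, Hsbp1 alone of 4 passed (0.15, adjusted p = 0.0324). Cirbp, an RNA-binding protein that is higher in the cold, was lower in fed livers at -0.57 ± 0.09, and Rbm3, another of its kind, was at -0.02 (adjusted p = 0.858).

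At the step from ZT10 to ZT13, 11 of 18 Hsp90 co-chaperones were higher in fed livers and 7 in unfed livers, with none lower in either. Of all genes 13.4% were higher and 13.3% lower in fed livers, and 9.74% were higher and 9.12% lower in unfed livers. Of Hsp70 partners, 10 of 21 were higher and 1 lower in fed livers, and 7 were higher and none lower in unfed livers. In fed livers the medians were 0.37 for the co-chaperones, 0.30 for the partners, 1.85 for the members and -0.04 for all genes. In unfed livers they were 0.23, 0.22, 1.18 and -0.02.

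Between the viruses, Fkbp5 was lower in CRE livers by 1.77 ± 0.13 on the log2 scale (log2 fold change -1.77, adjusted p = 1.53e-11), where the members ran from -0.15 to 0.41. Of all genes 14.6% passed, 7.92% higher and 6.64% lower in CRE livers. Ahsa2 was the other co-chaperone of 18 to pass, at -0.11. Hspb8, a small heat shock protein, was at -0.43 ± 0.06 (adjusted p = 2.87e-06), Hspa2, an Hsp70 known for its role in the testis, at -0.53 ± 0.14, and Dnajb2 at 0.20 ± 0.05. Dnaja3 was at -0.23 and Trap1, the mitochondrial Hsp90, at 0.13. Pfdn6 was at -0.30, Pdia4 at 0.24 and Hsf2, a heat shock factor, at 0.23, and 0 of 8 CCT subunits passed in edgeR.

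GR binding was mapped in unfed livers at ZT10 by chromatin immunoprecipitation, and the authors deposited peak positions without scores. The labels give 1 GR library and 1 input library of C57BL/6 livers without virus, and 1 GR library each of CRE and GFP livers. The sources used here do not say which of them served as the replicates. Within 25 kb of the gene interval, 5 of the 10 members had a peak among the 5772 found in both replicates, against 28.6% of 15818 genes looked up. They were Hspa1a, Hspa1b, Hsp90ab1, Dnajb1 and Hspb1. Hspa1a and Hspa1b are neighbours and share the peak at chr17:34975745-34975953, at 3.59 kb from the Hspa1a interval and 16.5 kb from the Hspa1b interval. Hsp90ab1 had 3 peaks, the nearest at chr17:45567488-45567696, 0.082 kb outside its interval. The nearest peaks of Dnajb1 and Hspb1 lay at 19.1 and 24.8 kb, and those of the other 5 members at 49.96 kb or more. With 10 kb 2 members had a peak (21% of genes), and with 50 kb 6 (38.5%). Among 23683 peaks called against input 7 members had one within 25 kb (62%), and among 18543 called against CRE chromatin 8 did (70.3%). Beyond the 5 members named above, these were Hspa8 and Dnaja1 against input, and Hsph1, Dnaja1 and Stip1 against CRE chromatin. The nearest of these peaks lay inside the gene interval for Dnaja1, in both lists, and for Stip1.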

How the data were processed

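RNA of 27 C57BL/6 and 36 Nr3c1fl/fl livers was compared. The authors deposited raw counts per RefSeq transcript, 1 column per library, and 3 lists of GR peaks as positions only, read as counting from 0. STAR, HOMER, DESeq2, mm10 and rn5 are named per the submitters' processing notes, without versions or roles, and a table of rat samples was not used. The sources used here do not say whether reads were assigned by strand. Transcript accessions were looked up in the GRCm38.p6 gene table (40219 of 40458 rows, 24790 genes), and the row with the highest total stood for a gene. Unmatched rows held 0.308% to 2.24% of C57BL/6 counts and 2.43% to 28.6% of Nr3c1fl/fl counts and stayed out of all totals. In each library 75.7% to 85.1% of counts from 1 to 10 were even, so the precision may be lower than the counts imply.

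The quasi-likelihood F-test of edgeR 4.0.16 (R 4.3.3) was run on the counts, with TMM scaling, filterByExpr and 1 fit per experiment, with Benjamini-Hochberg adjustment over all genes tested and a threshold of 0.05. SE is the log2 fold change over the square root of F, and 95% intervals use the t distribution of the fit. The script was checked on simulated counts. CPM are counts per 1000000 of the TMM-scaled total of the genes tested. Alternatives were DESeq2 1.42.0, RLE scaling, no filter, the groups of a comparison alone, a replicate block, another transcript row, the share of an unnamed row as a covariate, and leaving out libraries. Replicate numbers were not taken as pairs in the main fit. The labels do not say whether replicates shared cages or days, so their independence is not known. Each p-value weighs a difference between groups against the spread within the groups of the fit.

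Named genes are the 10 members, up to 3 genes per chaperone list with the smallest p in both averages, and the 8 most alike in profile. The members and lists were chosen with earlier results of these data known. A count of 0 allows up to 3 counts, for counting error only.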

Additional observations from a re-analysis of the deposited data

Results flagged for a closer look

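Hspa8, the constitutive cytosolic Hsp70, responded to food differently at different hours, by the test of feeding by time itself (edgeR, adjusted p = 0.0103 over 14744 genes, 12 fed and 12 unfed libraries). Its log2 fold change, fed over unfed, was 0.47 at ZT13 and 0.25 an hour later, 0.18 at ZT18 and -0.75 at ZT22. At ZT22 it was lower in 3 of 3 fed livers than in any unfed liver. Without replicate 3 of the unfed group at ZT22 the adjusted p was 0.0508.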

How the results depend on the processing

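Leaving out 1 library at a time kept 1989 of 2112 values on the same side of the threshold and in the same direction, with 73 weaker, 11 stronger and 39 reversed, and the other settings kept 913 of 943, with 21 weaker, 5 stronger and 4 reversed; where a value changed, the cause was not tested. The count of members in the test of feeding by time, 1 as reported, was 3 with no filter, 3 in DESeq2, 2 without the 2 libraries that stood apart, and 0 to 3 with a library left out. The count for fed against unfed was 1 at ZT13 and 5 at ZT14 with the groups of the comparison alone, and ran from 0 to 7 at ZT13, 1 to 4 at ZT14 and 3 to 5 at ZT18 with a library left out. For CRE against GFP on average it was 0 with no filter, 0 with the unnamed row's share as a covariate, 0 without the libraries over 20% of that row and 0 to 1 with a library left out, and at ZT13 it was 1 in DESeq2 and 0 to 1 with a library left out. For GFP ZT13 against ZT12 it was 0 with those groups alone and 1 without the libraries over 20%, which leaves 1 GFP library at ZT12 and none at ZT10, and for CRE ZT13 against ZT12 it was 4 to 9 with a library left out. With the covariate Hsph1 and Dnajb1 turned to 0.055 and 0.0075 in CRE against GFP, and without the libraries over 20% to 0.056 and 0.041, none past the threshold. With a library left out the averages ran from -0.085 to 0.039 for Hsph1, -0.058 to 0.016 for Dnajb1 and -0.022 to 0.038 for Stip1 in CRE against GFP, and from -0.068 to 0.29 for Hspa1a and -0.0045 to 0.11 for Hspa8 in fed against unfed. Members near a GR peak were 2 with 10 kb and 8 for peaks against CRE chromatin. With the replicate block the count of members was 7 for fed against unfed on average, 2 and 3 at ZT13 and ZT14, 4 and 3 at ZT18 and ZT22, and 1 for CRE against GFP, and Hsph1 at ZT13 and ZT18 missed the threshold (adjusted p = 0.053 and 0.0551). Deviations of same-numbered libraries of different groups correlated at -0.173 to 0.207. Of the 3 numbers, 11 of 27 C57BL/6 and 17 of 36 Nr3c1fl/fl libraries correlated best with their own. Fits that leave out a library keep 2 in its group, and the low counts of Hspa1a limit its values at ZT10 and ZT22.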
